A study of Mus musculus with 3 samples.

Results

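The genes described here are 10 components and targets of the Notch pathway, chosen by symbol from the deposited expression table: the ligand Dll1, the receptors Notch1 and Notch2, the DNA-binding factor Rbpj, the coactivators Maml1, Maml2 and Maml3, and the target genes Hes1, Hes5 and Hey1. They were chosen with earlier results of these data known. Each symbol matched 1 of the 24054 genes in the table. All 10 were among the 12692 genes whose mean over the libraries reached 1 CPM (the deposited read counts scaled to library size), so none was lost to that filter. RNA came from primary cortical neurons of C57BL/6 mice, prepared at embryonic day 17 and kept in culture for 7 days. The control library was from cells at 21% oxygen, the hypoxia library from cells held at 0.2% oxygen for 7 hours without T3, and the hypoxia with T3 library from cells held at 0.2% oxygen for 7 hours with 5 nM T3, the active thyroid hormone. Each of the 3 groups had 1 library, and the hormone content of the control medium is not stated in the labels. No difference below could therefore be set against a spread between cultures. Every interval covers counting error only, and not the choice of scale between libraries.

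Notch signalling passes between touching cells. A ligand such as Dll1 on the surface of a cell binds a Notch receptor on its neighbour, the receptor is cut by ADAM proteases and gamma-secretase, and the freed intracellular part enters the nucleus, where it joins Rbpj and a Mastermind-like (Maml) coactivator on DNA. In the embryonic cortex this complex switches on Hes and Hey genes, whose products are repressors that hold back neuronal differentiation in radial glia, and Rbpj without the receptor fragment acts with corepressors.

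Read totals were 18081904 in the control library, 17118865 in the hypoxia library and 22533574 in the library with T3. Markers of neurons summed to between 5344 and 5530 CPM per library. After adding 1 CPM, 1 of 7 was at least 2-fold higher than control in both hypoxic libraries. This was Nefl, a neurofilament, at 75.4, 171 and 185 CPM in the order control, hypoxia and hypoxia with T3. At least 2-fold lower in both was 1, Tubb3, a neuronal tubulin, at 1771, 873 and 739 CPM. Of all genes compared, 1.99% were higher and 4.92% lower in hypoxia, and 2.06% and 4.59% in hypoxia with T3. Markers of radial glia and progenitors summed to between 695 and 754 CPM, and those of astrocytes to between 507 and 542. Those of the oligodendrocyte lineage summed to 343, 199 and 201 CPM in the same order. Markers of microglia reached at most 1.79 CPM in sum and those of endothelial and mural cells at most 3.48, with Cldn5 at 0 in both hypoxic libraries. The cultures held the neuronal markers of their label together with RNA of progenitors and glia, the cells in which Hes5 and Notch1 are best known. In such bulk RNA, fewer cells of a type and less RNA per cell cannot be told apart.

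Promoter sequence was read for 8 of the 10 genes, with 11 annotated starts among them (RefSeq, GRCm38.p6). The windows of Hes1 and Hey1 were not analysed here. The stretches shown are the 250 bases before the start of the target gene with the lowest hypoxic ratio, of the coactivator with the lowest ratio, and of the ligand, 5′ to 3′ on the strand of the gene, with capitals marking the core letters bound by Rbpj, TGGGAA or the same letters on the other strand.
Hes5, chr4:154960673-154960922, plus strand: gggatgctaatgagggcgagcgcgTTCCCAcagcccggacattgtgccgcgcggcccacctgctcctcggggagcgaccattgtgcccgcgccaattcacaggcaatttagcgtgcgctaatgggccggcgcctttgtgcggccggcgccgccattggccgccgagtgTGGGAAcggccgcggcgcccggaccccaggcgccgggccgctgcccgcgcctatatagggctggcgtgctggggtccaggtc
Maml2, first start, chr9:13297708-13297957, plus strand: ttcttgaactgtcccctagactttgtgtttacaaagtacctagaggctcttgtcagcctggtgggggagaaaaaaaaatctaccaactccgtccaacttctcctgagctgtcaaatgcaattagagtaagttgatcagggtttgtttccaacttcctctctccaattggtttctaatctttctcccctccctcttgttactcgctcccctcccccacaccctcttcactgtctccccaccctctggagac
Dll1, second start, chr17:15376933-15377182, minus strand: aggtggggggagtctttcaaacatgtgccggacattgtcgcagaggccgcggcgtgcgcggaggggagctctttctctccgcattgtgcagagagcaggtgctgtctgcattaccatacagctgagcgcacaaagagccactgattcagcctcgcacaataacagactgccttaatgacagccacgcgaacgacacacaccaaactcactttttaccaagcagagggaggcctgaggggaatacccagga
The Hes5 stretch held 2 matches, on opposite strands, beginning 226 and 82 bases before the start. The Maml2 and Dll1 stretches shown held 0. Of the other starts, the first of Rbpj held 2 matches, and the second of Rbpj, the second of Maml2 and that of Maml3 held 1 each. The windows of the Rbpj starts overlap, and the match of the second start is also 1 of the 2 of the first. Among 32851 promoter windows of 300 bases, 25.6% held at least 1 match on either strand and 3.79% held 2 or more. The E-box CACGTG was in none of the windows of these 8 genes and in 7.15% of all windows. The N-box CACNAG, read by Hes factors, was in windows of Notch1, Notch2, Maml2 and Dll1 and in 42.5% of all windows, and ACGTG, the core of the hypoxia response element, was in those of Maml1 and Rbpj and in 19.6% of all windows. These are matches of letters and not measured binding.

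The hypoxic libraries differed from control in both directions across the members. The ligand Dll1 and the targets Hey1 and Hes1 had higher values in both hypoxic libraries, while both receptors, all 4 genes of the nuclear complex and the target Hes5 had lower ones. A gene was counted as different where the values, after adding 1 CPM to each, were at least 2-fold apart. By this rule 1 of the 10 genes was higher in hypoxia than in control (Hey1), against 1.99% of all genes compared, and 3 were lower (Maml2, Hes5 and Maml3), against 4.92%. The median log2 ratio of the 10 was −0.57, and that of all genes 0.05. Because the 10 were chosen with earlier results of these data known, neither the counts nor the medians here test for an excess. In hypoxia with T3 over control 1 was higher (Hey1), against 2.06%, and 2 were lower (Maml2 and Hes5), against 4.59%, with a median of −0.57 for the 10 and 0.08 for all genes. In hypoxia with T3 over hypoxia 0 of the 10 were higher, against 0.126%, and 0 were lower, against 0.063%, with medians of 0.07 and 0.01. The first 2 of these comparisons share the control library, and the third shares a library with each of them, so they are not separate evidence. The calls over all genes depend on the scale: 252 genes were higher and 624 lower in hypoxia than in control as deposited, and 188 and 952 when libraries were scaled to equal sums. For hypoxia with T3 over control the same change took 262 and 582 to 196 and 899. It moved the median log2 ratio of all genes by −0.16 and −0.18, and the sign of none of the 30 member ratios.

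**Figure D1:**
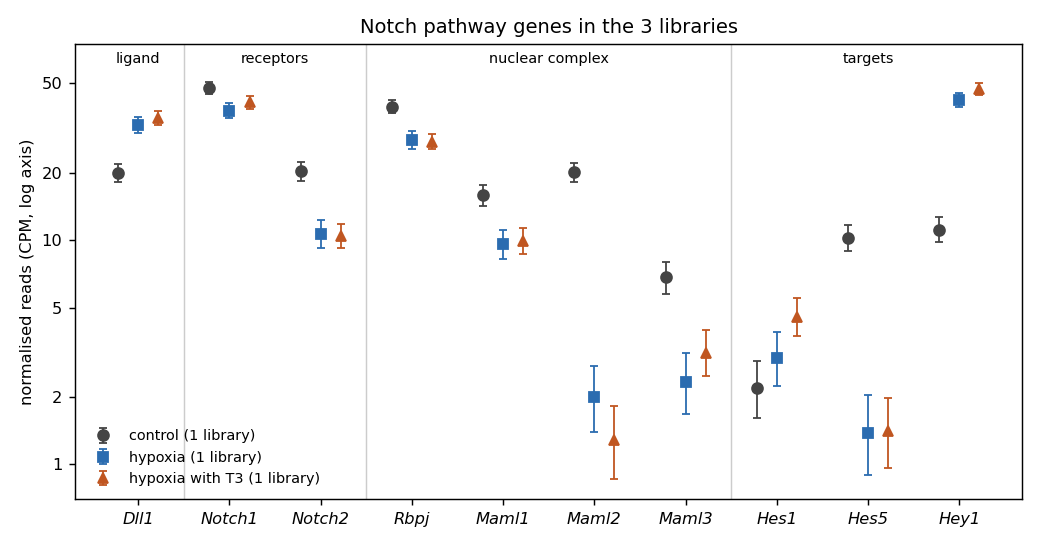
CPM of each of the 10 genes (log axis) in the control, hypoxia and hypoxia with T3 libraries, 1 library per point, with bars for the exact 95% counting interval. Maml2 and Hes5 drop from 20.1 and 10.2 CPM in control to below 2 CPM in both hypoxic libraries, and Hey1 goes from 11.1 to above 42 CPM.

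Dll1, a ligand presented by differentiating cells, had 19.9 CPM in control, 32.5 in hypoxia and 35.1 when T3 was present (values given below as 3 numbers follow this order). Both hypoxic libraries were above control and close to each other. Hypoxia over control was 1.63-fold (95% interval 1.44 to 1.85), hypoxia with T3 over control 1.76-fold (1.57 to 1.98), and the hypoxic libraries differed by 1.08-fold with an interval that includes 1 (0.970 to 1.20). Neither ratio to control reached 2-fold. Of the 8 ligands and related proteins on the wider list, 7 could be compared and 0 were 2-fold apart in any comparison. Their median log2 ratio was 0.18 in hypoxia and 0.07 in hypoxia with T3. The most abundant of them was Dner, a neuronal transmembrane protein with a Delta-like extracellular part, at 551, 651 and 656 CPM, 1.18-fold higher in hypoxia (1.15 to 1.21). With libraries scaled to equal sums this Dner ratio was 1.05, outside that interval. Jag2, a Jagged ligand, had 41.6, 38.7 and 38.2 CPM, a ratio of 0.930 with an interval that includes 1 (0.841 to 1.03).

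Notch1, the main receptor of cortical progenitors, had 47.9, 37.8 and 41.2 CPM. It was 1.27-fold lower in hypoxia than in control (1.15 to 1.40) and 1.16-fold lower in hypoxia with T3 (1.06 to 1.27). Notch2, the second receptor, had 20.3, 10.7 and 10.5 CPM. Its difference was larger, at 1.90-fold lower in hypoxia (1.60 to 2.27) and 1.94-fold lower with T3 (1.66 to 2.28), short of the 2-fold rule as deposited. With libraries scaled to equal sums Notch2 passed the rule in both comparisons, at log2 ratios of −1.03 and −1.08, and by the fold of the authors' deposited table it passed with T3. The intervals of the Notch1 and Notch2 ratios do not overlap in either comparison with control. T3 over hypoxia was 1.09-fold for Notch1 (0.988 to 1.20) and 0.981-fold for Notch2 (0.809 to 1.19), and both intervals include 1. Notch3, named after its values were seen, ran the other way at 8.62, 13.1 and 13.9 CPM, 1.52-fold higher in hypoxia (1.25 to 1.85). Summed over Notch1 to Notch4, receptor RNA was 78.0, 63.1 and 66.9 CPM, 1.24-fold lower in hypoxia (1.15 to 1.33).

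All 4 members of the nuclear complex had lower values in both hypoxic libraries than in control. Rbpj, the factor that holds the complex on DNA, had 39.4, 28.0 and 27.5 CPM, 1.41-fold lower in hypoxia (1.26 to 1.57) and 1.43-fold lower with T3 (1.29 to 1.59). Maml1, a coactivator that bridges the receptor fragment to histone acetyltransferases, had 15.9, 9.61 and 9.91 CPM, 1.65-fold lower in hypoxia (1.37 to 1.997) and 1.60-fold lower with T3 (1.35 to 1.90). For both genes the hypoxic libraries lay together below control, and neither ratio to control reached 2-fold.

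Maml2 differed most. Its 20.1 CPM in control stood against 1.99 in hypoxia and 1.28 with T3. That was 10.1-fold lower in hypoxia (7.18 to 14.6) and 15.7-fold lower with T3 (10.9 to 23.6). The hypoxic libraries themselves differed by 1.56-fold, lower with T3, with an interval that includes 1 (0.933 to 2.62). Maml3 had 6.81, 2.32 and 3.15 CPM, 2.94-fold lower in hypoxia (2.07 to 4.24) and 2.17-fold lower with T3 (1.63 to 2.90). The second of these falls short of the rule once 1 CPM is added, at a log2 ratio of −0.91, and passes it with equal sums at −1.08. The first passes with 1 CPM added but falls short with 5 CPM added, at −0.69. Together the 3 Mastermind-like genes had 42.8 CPM in control, 13.9 in hypoxia and 14.3 with T3, 3.07-fold (2.67 to 3.55) and 2.98-fold lower (2.63 to 3.39). The Maml2 interval in hypoxia lies wholly below those of Maml1 and Maml3, so these coactivators differed from control by unequal amounts, as far as counting error goes.

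The targets went in opposite directions. Hes5, a repressor of neuronal differentiation that depends on Notch in the embryonic brain, had 10.2 CPM in control against 1.38 and 1.40 in the hypoxic libraries. It was 7.42-fold lower in hypoxia (4.89 to 11.7) and 7.30-fold lower with T3 (5.05 to 10.9), with 1.02-fold between the hypoxic libraries (0.586 to 1.78). Hey1, a related repressor that acts downstream of Notch and of other signals, had 11.1, 42.2 and 47.1 CPM. It was 3.79-fold higher in hypoxia (3.28 to 4.40) and 4.24-fold higher with T3 (3.68 to 4.89), and 1.12-fold higher with T3 than in hypoxia alone (1.02 to 1.23). Hes1, the third repressor, had 2.18, 2.98 and 4.55 CPM, and its value with T3 was the highest of the 3 libraries. Hypoxia over control was 1.37-fold for Hes1 with an interval that includes 1 (0.909 to 2.07). With T3 it was 2.09-fold over control (1.47 to 3.01), short of the rule after adding 1 CPM, and 1.53-fold over hypoxia (1.09 to 2.16). The sum of the 3 targets was 23.5, 46.6 and 53.1 CPM, 1.98-fold (1.77 to 2.21) and 2.25-fold higher (2.03 to 2.50), and this sum is mostly Hey1 in the hypoxic libraries.

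**Figure D2:**
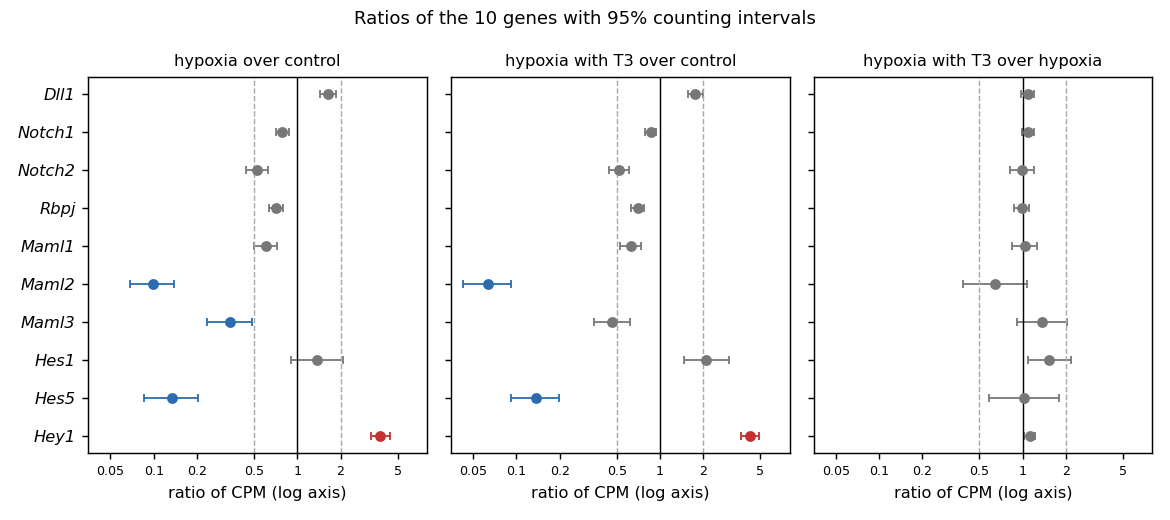
Ratio of CPM (log axis) for the 10 genes in each of the 3 comparisons, with bars for the exact 95% counting interval, dashed lines at 2-fold, red for genes called higher, blue for genes called lower and grey for the rest. Maml2 and Hes5 lie furthest below 1 and Hey1 furthest above in both comparisons with control, and none of the ratios of hypoxia with T3 over hypoxia lies as far from 1 as these.

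The authors' deposited tables compare each hypoxic library with control over 13152 genes, with an unnamed test on 1 library against 1. In the authors' deposited table for hypoxia, 85 genes had a false discovery rate below 0.05, among them Maml2 (10.5-fold lower, false discovery rate 0.000572) and Hes5 (7.71-fold lower, 0.00793). Hey1, 3.63-fold higher there, had 0.214 and Maml3 had 0.486. In the authors' deposited table for hypoxia with T3, 104 genes were below 0.05, with Maml2 at 1.6e-05 and Hes5 at 0.00568, and Hey1 at 0.121. The other members had false discovery rates of 0.933 or more in the authors' deposited tables for both comparisons. These are the same reads as above and are not a second measurement.

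Read per kilobase of exon, which allows levels of different genes to be compared, the members kept part of their order, while Hes5, Hey1, Maml2 and Hes1 changed places. In control it was Hes5 (7.51 CPM per kb), Dll1 (4.72), Hey1 (3.41), Notch1 (3.37), Rbpj (3.09), Maml2 (3.04), Maml1 (2.88), Notch2 (1.88), Hes1 (1.07) and Maml3 (0.650). Counting intervals of neighbours overlapped from Hey1 through to Maml1, so these 5 genes have no firm order. The other steps were apart as far as counting error goes. In hypoxia Hey1 led with 12.9 CPM per kb, followed by Dll1 (7.71), Notch1 (2.65), Rbpj (2.20), Maml1 (1.74), Hes1 (1.46), Hes5 (1.01), Notch2 (0.989), Maml2 (0.301) and Maml3 (0.221). There the intervals overlapped from Rbpj through to Notch2, and between Maml2 and Maml3. Hypoxia with T3 had the same first 3 genes and the same 2 genes at the bottom, with Hes1 at 2.23 CPM per kb next to Rbpj at 2.16. There the intervals overlapped from Hes1 through Rbpj to Maml1, between Hes5 and Notch2, and between Maml3 and Maml2. Hes5 RNA per kb was 2.21 times that of Hey1 in control, and Hey1 was 12.8 times Hes5 in hypoxia and 14.0 times with T3. Maml2 and Maml1 were near par in control, at a ratio of 1.06, and Maml1 was 5.77 and 9.27 times Maml2 in the hypoxic libraries.

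A wider list of 78 pathway genes, all in the table and 72 of them compared, placed these values in context. With the members included, 1 of the 72 was higher and 9 were lower in hypoxia than in control, against 1.99% and 4.92% of all genes compared (median log2 ratio −0.10). In hypoxia with T3 they were 1 and 7, against 2.06% and 4.59% (median −0.09). Outside the members 62 genes were compared, and 0 were higher and 6 lower in hypoxia, 0 and 5 with T3, and 0 in either direction between the hypoxic libraries. The 6 were spread over 4 roles, and the counts by role given next are to be read against the same shares of all genes.

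Of 9 genes for receptor glycosylation and ligand endocytosis, 1 was lower, Lfng, the Fringe glycosyltransferase that alters which ligands a receptor answers. It had 12.7, 5.19 and 5.32 CPM, 2.44-fold lower in hypoxia (1.92 to 3.11). Its relative Rfng was abundant and went the other way, with 84.8, 111 and 110 CPM, and Mib2, a ubiquitin ligase for ligands, had 77.4, 92.4 and 88.3 CPM, the last of which is on the other side of control when libraries are scaled to equal sums. Of 10 genes for receptor cleavage 0 were 2-fold apart. Adam10, the protease that makes the first activating cut, had 114.8, 72.8 and 83.2 CPM, 1.58-fold lower in hypoxia (1.47 to 1.69), while Ncstn, a gamma-secretase subunit, had 76.0, 97.8 and 96.7 CPM, 1.29-fold higher (1.20 to 1.38). With equal sums the ratios of hypoxia over control were 0.562 for Adam10 and 1.14 for Ncstn.

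Of 10 genes for receptor turnover and antagonists, 3 were lower in hypoxia and 2 with T3. Numb, an endocytic antagonist of Notch, had 7.37, 2.43 and 3.70 CPM, 3.03-fold lower in hypoxia (2.16 to 4.34) and 1.52-fold higher with T3 than in hypoxia alone (1.05 to 2.24). Itch, a ubiquitin ligase of Notch receptors, had 47.8, 19.2 and 21.1 CPM, and Nedd4l, a ligase of the same family, 166, 73.5 and 80.2 CPM. They were 2.49-fold and 2.26-fold lower in hypoxia and 2.26-fold and 2.07-fold lower with T3. Nedd4, the most abundant gene of this role, had 695, 710 and 710 CPM, a ratio of 1.02 whose interval includes 1. Dtx1, a Deltex ligase, had 158, 208 and 209 CPM, 1.32-fold higher in hypoxia (1.26 to 1.39).

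Of 9 genes of the nuclear complex, members included, 3 were lower in hypoxia, Maml2, Maml3 and Kat2b, with a median log2 ratio of −0.67. Kat2b, a histone acetyltransferase, had 8.16, 2.93 and 2.76 CPM, 2.79-fold lower in hypoxia (2.04 to 3.86) and 2.95-fold lower with T3 (2.21 to 3.99). Its paralog Kat2a had 68.5, 99.7 and 101 CPM, 1.46-fold higher in hypoxia (1.36 to 1.56), and Ep300, the acetyltransferase that Maml proteins recruit, had 95.7, 58.9 and 63.7 CPM, 1.62-fold lower (1.51 to 1.75). Of 14 corepressors 1 was lower, Tle4, a Groucho-type partner of Hes proteins, at 75.4, 34.1 and 29.2 CPM, 2.21-fold lower in hypoxia (2.02 to 2.43). The abundant Ncor1 was at 333, 355 and 359 CPM, on the other side of control with equal sums, and Ctbp1 at 214, 249 and 246 CPM. For Ctbp1 the ratio of hypoxia over control was 1.03 with equal sums.

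Among the targets, 5 of 7 were compared. Nrarp, a feedback inhibitor that Notch switches on, had 10.4, 9.78 and 16.4 CPM. Hypoxia alone was level with control, with a ratio of 0.942 whose interval includes 1 (0.769 to 1.15), and T3 over hypoxia was 1.68-fold (1.40 to 2.02), short of the rule. Of 7 proneural genes on the list, which Hes repressors hold down or which oppose them, 4 were compared and 0 were 2-fold apart after adding 1 CPM. Hes6, which counters Hes1, had 39.1, 65.7 and 59.7 CPM, 1.68-fold higher in hypoxia (1.54 to 1.84). Neurod1, a neuronal differentiation factor, had 19.5, 9.83 and 9.74 CPM, 1.98-fold lower (1.66 to 2.38).

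**Figure D3:**
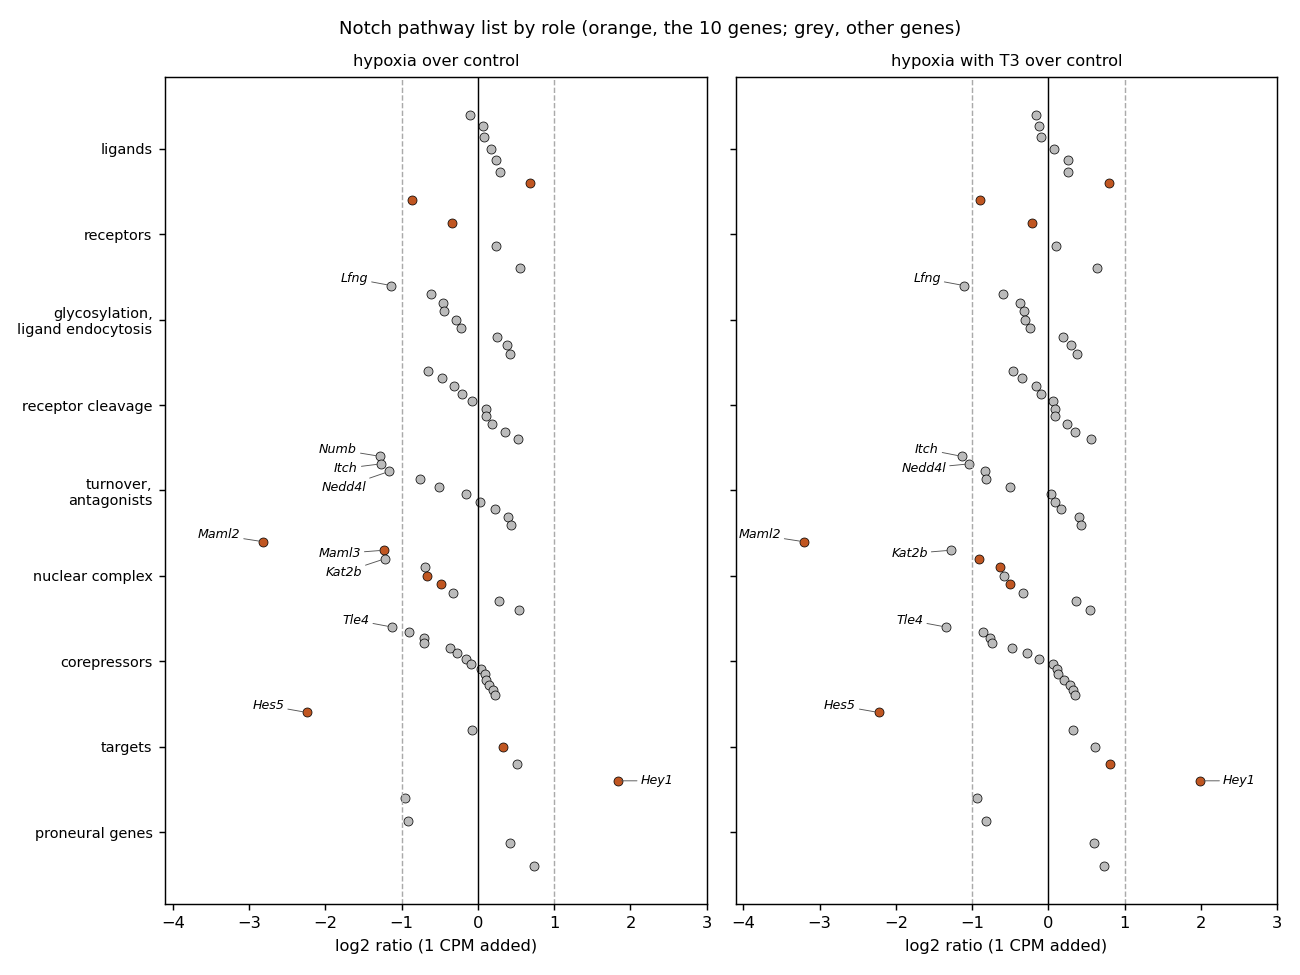
log2 ratio to control, after adding 1 CPM, of the 72 compared pathway genes by role, in hypoxia (left) and hypoxia with T3 (right), with the 10 members in orange and dashed lines at 2-fold. The genes beyond the lines are named, and most of the list lies between the lines, with Hey1 as the only gene to the right of them.

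The members that were low differ in genomic span. Maml2 (chromosome 9, 13297957 to 13709388, plus strand, GRCm38) spans 411 kb and Maml3 (chromosome 3, 51685907 to 52105076, minus) 419 kb. Maml1 (chromosome 11, 50255634 to 50292311, minus) spans 36.7 kb. The receptors span 58.8 kb for Notch1 (chromosome 2, 26457903 to 26516663, minus) and 137 kb for Notch2 (chromosome 3, 98013527 to 98150361, plus), and Rbpj (chromosome 5, 53466152 to 53657362, plus) spans 191 kb. The remaining members are short: Hes5 (chromosome 4, 154960923 to 154962371, plus) at 1.45 kb, Hes1 (chromosome 16, 30064384 to 30067796, plus) at 3.41 kb, Hey1 (chromosome 3, 8663359 to 8667256, minus) at 3.90 kb and Dll1 (chromosome 17, 15367354 to 15376872, minus) at 9.52 kb. Notch2, longer than Notch1, had the lower hypoxic ratio of the pair, and Maml2 and Maml3, both longer than Maml1, had lower ratios than Maml1. Other pairs went the other way: Rbpj had a higher hypoxic ratio than the shorter Maml1 and Notch2, and Maml3 a higher one than the shorter Maml2.

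Over all genes compared, 1.11% of those under 30 kb, 5.24% of those of 30 to 100 kb, 17.9% of those of 100 to 300 kb and 15.7% of those of 300 kb or more were lower in hypoxia than in control by the rule. The part of span in the ratios of the members was not tested. Among the 497 genes of 300 kb or more, 1 had a lower ratio than Maml2 in hypoxia, and 0 in hypoxia with T3. Maml3 had 44 and 92 of the 497 below it. Of 6920 genes under 30 kb, 0 had a lower ratio than Hes5 in hypoxia and 1 had in hypoxia with T3. Hey1 had 60 and 49 genes of that class above it. Dll1 and Hes1 had 635 and 2827 of the 6920 above them in hypoxia. Notch2 and Rbpj had 342 and 641 of 1528 genes of 100 to 300 kb below them in hypoxia. Maml1 and Notch1 had 550 and 1216 of 3663 genes of 30 to 100 kb below them in hypoxia. Of the other pathway genes that were lower, Nedd4l spans 330 kb, Tle4 150 kb, Numb 128 kb, Kat2b 106 kb, Itch 93.3 kb and Lfng 8.23 kb.

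**Figure D4:**
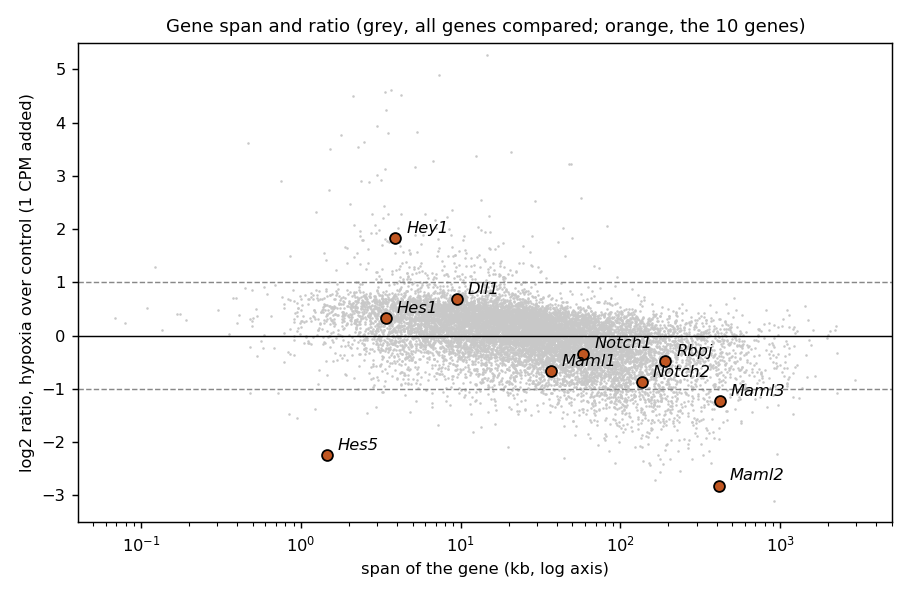
log2 ratio of hypoxia over control, after adding 1 CPM, against genomic span (log axis, kb) for all compared genes with an annotated span, in grey, and the 10 members, in orange. Hes5 lies at the bottom edge among short genes, and Maml2 at the bottom edge among genes of 300 kb or more.

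Some member loci overlap other annotated genes, and whether reads were counted by strand is not stated in the sources used here. Of the exonic bases of Hes5, 31.8% overlap Gm20421 on the opposite strand, and 20.5% of those of Dll1 overlap A930024N18Rik on the opposite strand, so reads of these pairs could have been mixed. The overlap was 10.4% for Notch1, with genes on the opposite strand, and 5.02% for Notch2, with Gm42820 on the same strand. Hey1, Hes1, Rbpj and Maml3 overlap no exon of another gene, and Maml2 does for 1.53% of its exonic bases. Words of 31 bases shared, on either strand, with transcripts of other genes made up 25.7% of those of Hes5 and 17.9% of Dll1. The share was 11.8% for Rbpj (most often with Rbpj-ps3, a pseudogene), 9.40% for Notch1, and between 1.48% and 4.28% for Notch2 and the Maml genes. It was 0 for Hes1 and Hey1. These shares are not separate from the overlaps above, since words of Hes5 and Dll1 were shared most often with Gm20421 and A930024N18Rik.

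Marker RNA of other cell types was read beside these values. Of 10 radial glia and progenitor markers 0 were 2-fold apart in any comparison, with a median log2 ratio of 0.13 in hypoxia. Among them Sox2 had 42.2, 52.4 and 50.4 CPM and Fabp7 298, 267 and 308 CPM. The markers of cycling cells had lower values in hypoxia, Mki67 at 69.4, 34.8 and 41.8 CPM and Top2a at 57.0, 36.8 and 43.0 CPM. Of 7 astrocyte markers compared 0 were 2-fold apart. Of 8 oligodendrocyte lineage markers 3 were lower in hypoxia and 2 with T3, against 4.92% and 4.59% of all genes compared. None of them was at 0, and 0 were higher in either comparison. Pdgfra (63.2, 27.2 and 22.3 CPM) and Olig2 (87.4, 41.4 and 42.8 CPM) were lower in both. Gpr17, called in hypoxia only, had 11 reads there and 52 in control. The part of any of these cell types in the ratios of the members was not tested.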

How the data were processed

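Strand-marking RNA libraries (KAPA kit, total RNA, per the labels' protocols) were made for 3 groups with 1 library each, grouped by their treatment labels. RSEM 1.2.15, Bowtie2 2.1.0, bcl2fastq 2.17 and the build mm10 are named, with no role or order, in the submitters' processing notes. The authors deposited CPM for 24054 genes, with TMM scaling per the file name, and 2 tables of comparisons with control that hold, per the file headers, a fold, a p-value and its false discovery rate. Their test is not given in the sources used here, and the 4 value columns of individual libraries in those tables were not used.

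Of the CPM values, 100% were whole multiples, within 0.01, of 1 read (0.0463 CPM in control, 0.0552 in hypoxia, 0.0425 with T3). The limit that 0 reads allow was set at 3, which is 0.139, 0.166 and 0.128 CPM in that order. A count test was not run, since 1 library per group leaves no residual spread. Printed folds are ratios of CPM, with 95% intervals by the exact Clopper-Pearson method, applied to how a gene's reads divide between 2 libraries. The labels mention no molecular identifiers, without which reads are not independent molecules, and the intervals cover counting error only. Log2 ratios and calls used an added 1 CPM.

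The members, lists and comparisons were chosen with earlier results of these data known. Named genes were the members and, per role of the wider list, each gene at least 2-fold apart and the 2 of highest mean CPM. For likeness, the 4 genes nearest in the 2 log2 ratios to control were taken for each member called in both, among genes of at least 5 CPM. A gene that these rules name is not reported here. Span and exons came from GENCODE M21 (GRCm38, the assembly of mm10), with 12121 genes matched on symbol, 487 on a synonym and 0.662% unmatched. Windows for motifs ran from 250 bases before to 50 after each start. Python 3.11.15, numpy 2.4.6, pandas 2.3.3, scipy 1.17.1, matplotlib 3.10.9, R 4.3.3 and edgeR 4.0.16 (TMM only) were used. The computing of ratios, intervals and calls was checked on simulated counts. These held counting error only, so the check says nothing of the spread between cultures.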

Additional observations from a re-analysis of the deposited data

How the results depend on the processing

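The sign of each of the 30 member log2 ratios was kept under equal sums, TMM from the reads and median-of-ratios size factors. The other runs (added values of 0.1 and 5 CPM, other filters) could not change a sign. Of 130 counts of calls over the members, the wider list and all genes compared, 110 stayed within 1.5 times of the reported count. Counts of 0 that stayed at 0 are among the 110. With a mean of at least 5 CPM required, Hes1, Hes5 and Maml3 drop out, 1 member was lower in hypoxia than in control and 1 in hypoxia with T3, and 5 of the wider list were lower in hypoxia. That filter left 3 genes lower between the hypoxic libraries. With 0.1 CPM added, 2 members and 3 of the wider list were higher in hypoxia with T3 than in control, and 44 genes were higher and 18 lower between the hypoxic libraries. With 5 CPM added, 2 members were lower in hypoxia than in control, Maml3 being the one lost. In that run 5 of the wider list were lower in hypoxia, 155 genes were higher and 286 lower in hypoxia than in control, 167 and 269 in hypoxia with T3, and 8 and 1 between the hypoxic libraries. With equal sums, 4 members were lower in hypoxia than in control, Notch2 being the one gained. In hypoxia with T3, 4 members, with Notch2 and Maml3 gained, and 12 of the wider list were lower, and 952 and 899 genes were lower in hypoxia and hypoxia with T3. By the fold of the authors' deposited table, 4 members were lower in hypoxia with T3, the same 2 gained. The signed range of log2 ratios over the alternatives was −3.39 to −1.84 for Maml2, −2.95 to −1.26 for Hes5 and 1.55 to 1.91 for Hey1 in hypoxia over control. Low depth limits Maml2, Hes5, Maml3 and Hes1 most, since few reads stand behind their hypoxic values. No paired analysis was possible because each group has 1 library, and for the same reason no library could be left out.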

Other observations

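For each member called in both comparisons with control, the 4 genes with the nearest pair of log2 ratios were taken from 9974 genes, over 3 libraries and with no test. Nearest to Maml2 were Nckap5, Zswim6, Unc5c, a netrin receptor, and Chd7, a chromatin remodeller, at distances of 0.30 to 0.66 on the log2 scale. In the order control, hypoxia, hypoxia with T3, Nckap5 had 23.9, 1.88 and 1.79 CPM, and Unc5c had 75.9, 13.8 and 8.42. Nearest to Hes5 were Sox5, a transcription factor of cortical neurons, Fut9, Tmem108 and Zfp462, at 0.03 to 0.12. Sox5 had 114.3, 23.7 and 24.1 CPM. Among those nearest to Hey1 were P4ha1, a collagen prolyl hydroxylase subunit, Hspa2 and Rbm38, at 0.009 to 0.12. P4ha1 had 18.3, 68.2 and 75.5 CPM. The ratios of these genes share the same 3 libraries.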
